A study of Homo sapiens with 4 samples.

Results

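The 41 genes described here encode the actins of the cytoplasm and the proteins that build, cap, cut and cross-link actin filaments. They were chosen from a list of symbols matched to the Ensembl identifiers of the expression table, and all 41 were found among its 50653 listed genes. No measured value was used to pick them, although they were chosen with earlier results of these data known. RNA was sequenced from 2 established human breast cancer cell lines, BT-20 and MDA-MB-468 (MB-468 in the labels), each carrying either a control shRNA or an shRNA against QPRT, the enzyme that turns quinolinate into a precursor of NAD. An shRNA is a short hairpin RNA that the cell trims to a small RNA, which then leads matching mRNA to be degraded. According to the methods of the study, the QPRT shRNA was in the lentiviral vector pLKO.1-puro and the control shRNA in a lentiviral vector not named further. Transduced cells of both lines were selected with puromycin, so the control cells carry a vector and a selection of their own. The number of QPRT hairpin sequences is not stated. There were 4 libraries, 1 for each cell line and shRNA, of 10321995 to 10945947 fragments. Values are FPKM, the fragments on a gene scaled to transcript length and library size.

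Actin cycles between single subunits and filaments with a fast-growing barbed end and a slow-growing pointed end. Profilin feeds subunits to growing ends, the Arp2/3 complex starts branches on existing filaments when WASP or WAVE proteins activate it, capping protein stops growth at barbed ends, and ADF/cofilin cuts old filaments. Tropomyosins, alpha-actinins, filamins and fascin decide which kind of array the filaments form, and such arrays drive the protrusions and stress fibres of migrating cells. Many genes of this machinery are known targets of serum response factor, which binds the CArG box and works with MRTF coactivators that are held back by free actin subunits.

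The CArG box is the sequence feature that links the regulation of these genes to actin itself, so the promoters of the members were searched for it. RefSeq promoter windows of 250 bases before to 50 bases after the annotated start (GRCh38.p14) were found for 34 members, and the motif was searched by its consensus, which reads the same on both strands. The 7 members without a matched window were ACTB, VIL1, ARPC1B, WASF2, CTTN, PFN2 and FSCN1. The box was present in 4 of the 34 windows (11.8%), against 1.29% of the 35116 windows of the whole table and 1.48% of the 10533 tested genes with a window. Stretches of 50 bases around it follow, 5′ to 3′ on the strand of the gene, with the CArG box in capitals.
ACTG1, chr17:81512864-81512913, minus strand: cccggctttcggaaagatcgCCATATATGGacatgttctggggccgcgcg
ACTN1, chr14:68977708-68977757, minus strand: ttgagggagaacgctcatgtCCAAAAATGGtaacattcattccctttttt
FLNA, chrX:154374699-154374748, minus strand: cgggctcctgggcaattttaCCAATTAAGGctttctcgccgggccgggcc
TPM4, chr19:16067345-16067394, plus strand: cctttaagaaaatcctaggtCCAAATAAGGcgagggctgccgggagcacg
The capitals begin 94 bases before the RefSeq start in ACTG1 and in FLNA, 171 bases before it in ACTN1 and 173 bases before it in TPM4. In GENCODE 29 the FLNA stretch lies upstream of the whole gene, those of ACTN1 and TPM4 fall in introns of transcripts that start earlier, and that of ACTG1 overlaps 1 exon of such a transcript. A match describes the letters in the window and is not a measured binding site. The motif was also present in 4 of 81 other genes of actin regulation (4.94%) listed for comparison.

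The labels held up against the defining genes of these cells. QPRT stood at 249 FPKM in BT-20 with control shRNA and 40.5 with QPRT shRNA, and at 117 and 18.3 FPKM in MDA-MB-468. The 6 epithelial markers were at 76.1 FPKM or more in every library. Of the 3 hormone receptor and luminal markers, only PGR was at 0 in all 4 libraries. ESR1 stood at 5.51 and 5.76 FPKM in BT-20 and 1.87 and 1.05 FPKM in MDA-MB-468, with control and QPRT shRNA in that order. GATA3 stood at 76.1 and 78.1 FPKM in BT-20 and 38.6 and 44.5 FPKM in MDA-MB-468. SMAD4, which is deleted in MDA-MB-468, was at 9.67 and 11.2 FPKM in BT-20 and at 0.279 and 0.0986 in MDA-MB-468. CDKN2A, which is deleted in BT-20, was at 0 and 1.01 FPKM there and at 225 and 244 in MDA-MB-468. In bulk RNA, fewer cells that express a gene and less RNA of it per cell cannot be told apart.

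The actin filament genes were among the abundant transcripts of both lines. Together they held 1.65% and 1.62% of all FPKM in BT-20 with control and QPRT shRNA, and 1.81% and 1.66% in the MDA-MB-468 libraries. The median member stood between 137 and 147 FPKM, against medians of 13.4 to 15.3 over all genes tested, that is, the 14321 genes with a mean of at least 1 FPKM over the 4 libraries. All 41 members passed that filter. ACTB alone made up between 29.3% and 32.6% of the summed FPKM of the members and ranked between 6 and 8 among all genes of a library. Only VIL1, FSCN1, CFL2 and TPM2 were under 10 FPKM in at least 1 library among the members, with CFL2 below it in MDA-MB-468 and TPM2 in BT-20.

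**Figure D1:**
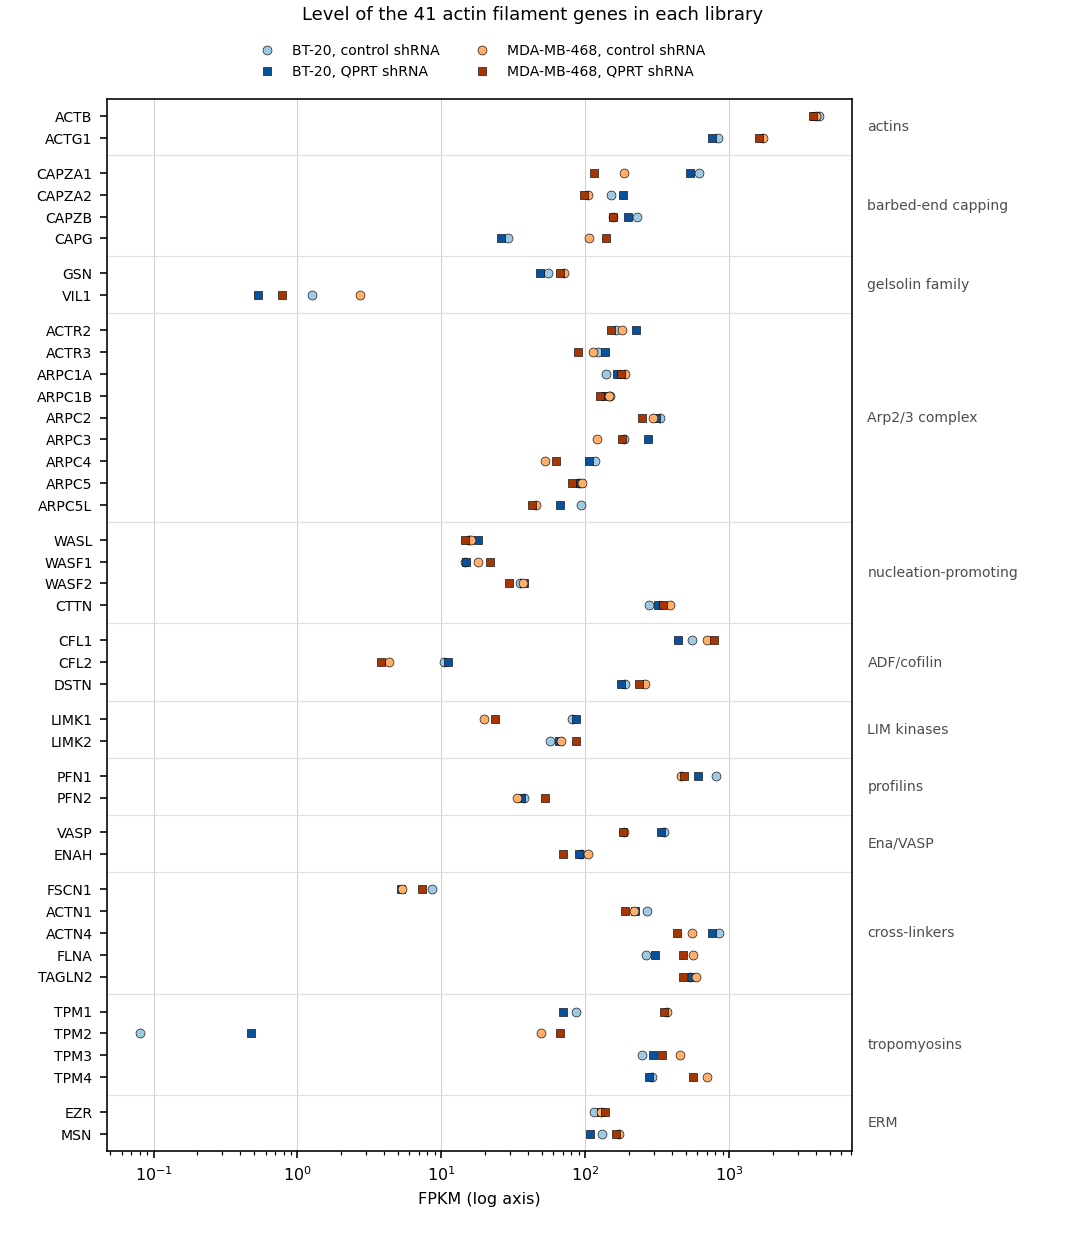
FPKM (log axis) of each of the 41 genes in the 4 libraries, 1 point per library, grouped by role. ACTB sits between 3833 and 4169 FPKM in all libraries, while TPM2 lies under 0.5 FPKM in BT-20 and at 48.9 and 66.7 FPKM in MDA-MB-468.

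The first comparison asked which of these genes differed between QPRT shRNA and control shRNA. None of the 41 members passed the test over both lines. It was a limma fit to log2(FPKM + 1) on all 14321 genes, blocked by cell line and adjusted by Benjamini-Hochberg, and it called 0.628% of all genes at an adjusted p under 0.05. At an unadjusted p under 0.05 there were 3 members, ARPC3, VIL1 and CAPZA1, against 4.8% of all genes, and limma-voom on recovered fragments likewise called 0 members, with 3 at an unadjusted p under 0.05. The spread in this fit is the disagreement between the 2 lines, pooled over genes, so its p-values measure only the spread between these libraries.

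Within a line there was 1 library per shRNA and therefore no test, and each ratio is given with an exact 95% interval that covers counting error only. Counts by size of difference are on log2(FPKM + 1), which shrinks the differences of low genes. In BT-20 no member then differed 2-fold or more, against 1.7% of all genes. In MDA-MB-468 only VIL1 did, 1 of 41, against 1.89% of all genes. At 1.5-fold the members were FSCN1 alone in BT-20, where 8.98% of all genes passed, and CAPZA1, VIL1, ARPC3 and PFN2 in MDA-MB-468, where 9.17% passed. On that scale no member reached 1.5-fold in the same direction in both lines, against 0.426% of all genes higher and 0.426% lower. By the plain ratio of FPKM, VIL1 was 2.37-fold lower in BT-20 and 3.46-fold lower in MDA-MB-468, on 13 to 66 fragments per library. By that ratio TPM2 was 5.84-fold higher in BT-20, on about 1 and 6 fragments.

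Small differences leaned lower. With QPRT shRNA, 23 members were lower in BT-20, against 43% of all genes, and 28 were lower in MDA-MB-468, against 47.6% of all genes. The median difference of the members on the log2(FPKM + 1) scale was -0.07 in BT-20 and, for MDA-MB-468, -0.10, while the medians of all genes were 0.05 and 0.01. In both lines together 16 members were lower (17.7% of all genes), 6 were higher (26.2% of all genes), and 19 had opposite signs (54.6% of all genes). The 6 that were higher in both were ARPC3, WASF1, LIMK1, LIMK2, TPM2 and EZR. Scaling to the upper quartile gave 17 lower and 6 higher in both lines, TPM scaling 16 and 6, and correction for GC content and transcript length 20 and 6, with CAPG in place of WASF1 among the 6.

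**Figure D2:**
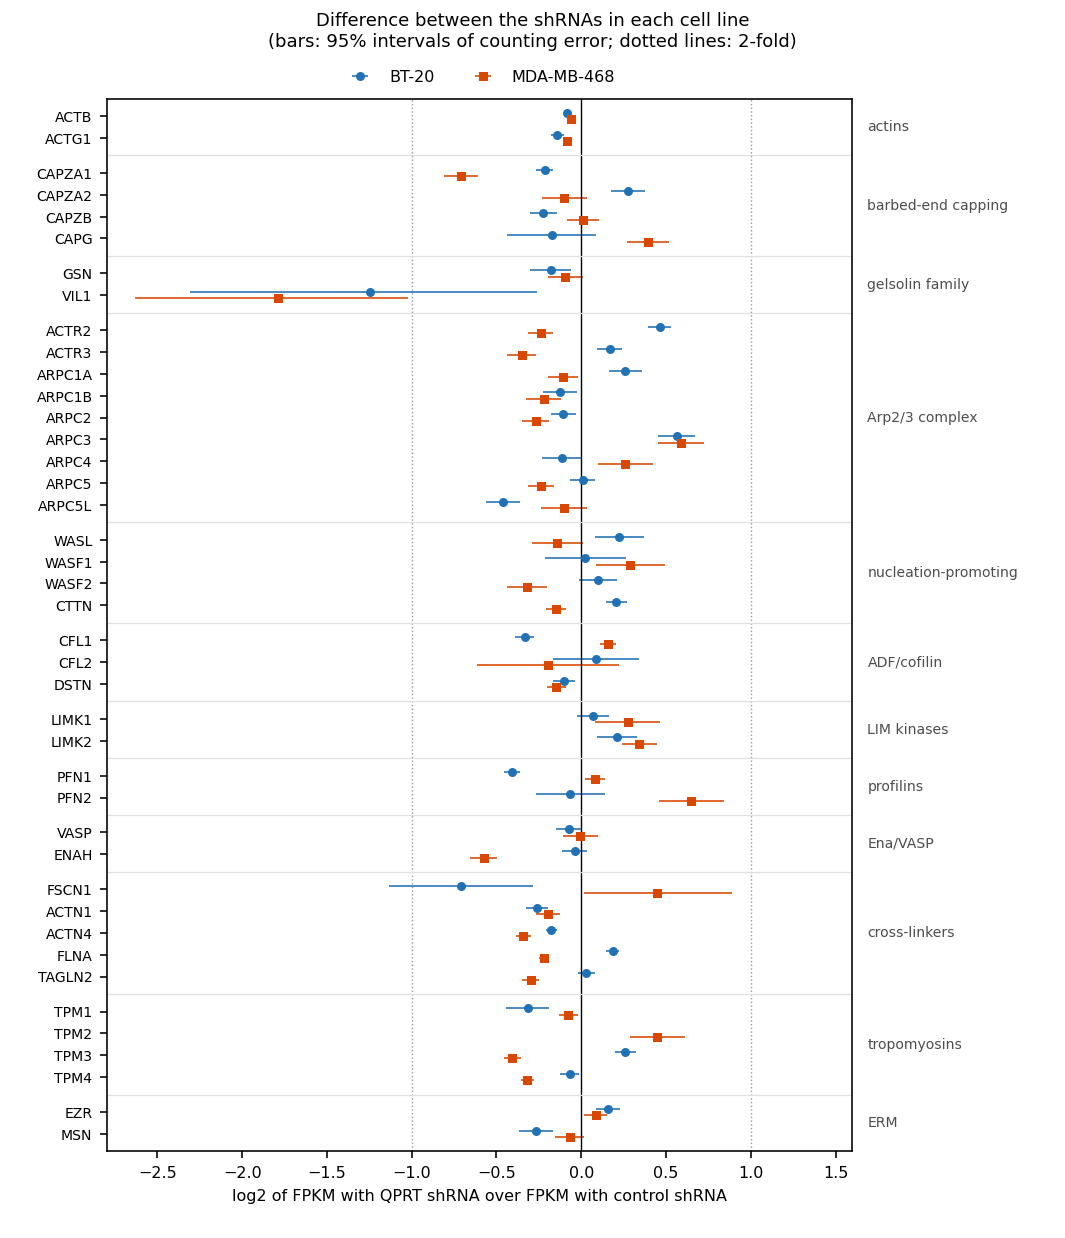
Log2 ratio of FPKM with QPRT shRNA over control shRNA for each gene in BT-20 (circles) and MDA-MB-468 (squares), with 95% intervals of counting error and dotted lines at 2-fold; TPM2 in BT-20 (about 1 and 6 fragments) is left out. ARPC3 lies right of 0 in both lines and VIL1 and CAPZA1 left of it, while ACTR2, TPM3 and FSCN1 lie on opposite sides of 0 in the 2 lines.

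ACTB (chr7:5527147-5563784) and ACTG1 (chr17:81509971-81523847) encode the beta and gamma actins of non-muscle cells; these and all gene positions are from GENCODE 29 on GRCh38. ACTB stood at 4169 FPKM in BT-20 with control shRNA, 3935 with QPRT shRNA, 3993 in MDA-MB-468 with control shRNA and 3833 with QPRT shRNA. The shRNAs were thus 1.06-fold apart in BT-20, where the sign turned with the GC trend removed, and 1.04-fold apart in MDA-MB-468. ACTG1 stood at 833, 756, 1707 and 1611 FPKM in the same order, so the lines were apart and the shRNAs close together. The mean effect of QPRT shRNA on the log2 scale was -0.07 for ACTB (SE 0.189, limma adjusted p = 1) and -0.11 for ACTG1 (SE 0.186, limma adjusted p = 1). ACTG1 was higher in MDA-MB-468 by 1.06 on the log2 scale (SE 0.186, limma adjusted p = 6.84e-08). The ratio of ACTB to ACTG1 was 5.0 and 5.2 in BT-20 and 2.34 and 2.38 in the MDA-MB-468 libraries. GENCODE 29 names 10 pseudogenes of ACTB and 20 of ACTG1, whose summed FPKM was at most 0.0269% and 0.231% of the parent gene.

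Capping protein is a dimer of an alpha subunit, CAPZA1 or CAPZA2, and the beta subunit CAPZB, which together block barbed ends. CAPZA1 (chr1:112619173-112671619) stood at 615 FPKM in BT-20 with control shRNA and 530.0 with QPRT shRNA, and at 186 and 114 FPKM in MDA-MB-468. Both BT-20 libraries lay above both MDA-MB-468 libraries. With QPRT shRNA the FPKM was 1.16-fold lower in BT-20 and 1.63-fold lower in MDA-MB-468, and the mean log2 effect was -0.46 (SE 0.19, limma adjusted p = 0.694). Of all 14321 genes, CAPZA1 ranked 324 by p in that fit. Corrected for GC content and length, its log2 differences were -0.30 and -0.62.

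CAPZA2 did not move with its paralog. It stood at 151 and 183 FPKM in BT-20 and at 104 and 97.1 FPKM in MDA-MB-468, with control and QPRT shRNA in that order. The ratio of CAPZA1 to CAPZA2 was 4.07 and 2.89 in BT-20 and 1.79 and 1.17 in the MDA-MB-468 libraries. Within a library this ratio does not depend on the total, and it was lower with QPRT shRNA in both lines, by log2 -0.49 in BT-20 (95% counting interval -0.60 to -0.38) and by -0.61 in MDA-MB-468 (-0.77 to -0.45). CAPZB stood at 230 and 197 FPKM in BT-20 and 156 and 157 FPKM in MDA-MB-468, so the ratio of CAPZA1 to CAPZB was alike in the BT-20 libraries (2.67 and 2.69) and was 1.20 and 0.727 in MDA-MB-468. In the library of MDA-MB-468 with QPRT shRNA the beta subunit was thus above CAPZA1, and the summed alpha subunits stayed above it. All 3 subunits were higher in BT-20 by the test between lines, by 1.96 for CAPZA1 (limma adjusted p = 1.32e-23), 0.72 for CAPZA2 (0.000706) and 0.44 for CAPZB (0.0405) on the log2 scale. The CAPZB call was lost without the variance trend and when any 1 library was left out. That of CAPZA2 was lost when 1 library other than BT-20 with control shRNA was left out.

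CAPG, a gelsolin relative that caps barbed ends without cutting, had the opposite pattern between the lines. It stood at 29.2 and 25.9 FPKM in BT-20 and at 107 and 140.0 FPKM in MDA-MB-468. The 2 MDA-MB-468 libraries were both more than 3-fold above the BT-20 libraries, and the line difference was 2.11 on the log2 scale (SE 0.208, limma adjusted p = 6.84e-23). With QPRT shRNA it was 1.13-fold lower in BT-20, with a log2 counting interval of -0.44 to 0.09, and 1.31-fold higher in MDA-MB-468, with an interval of 0.27 to 0.52. The sign in BT-20 turned when the GC trend was removed.

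Gelsolin and villin cut filaments and cap the new ends. GSN stood at 54.6 and 48.2 FPKM in BT-20 and 70.8 and 66.3 FPKM in MDA-MB-468, a narrow range with no call in either comparison. VIL1 (chr2:218419092-218453295), the villin of intestinal microvilli, was the lowest member by mean level over the 4 libraries. It stood at 1.27 FPKM (30 fragments) and 0.536 FPKM (13 fragments) in BT-20 and at 2.71 FPKM (66 fragments) and 0.784 FPKM (18 fragments) in MDA-MB-468. Both QPRT shRNA libraries were below both control libraries, 2.37-fold in BT-20 and 3.46-fold in MDA-MB-468. The mean log2 effect was -0.81 (SE 0.307, limma adjusted p = 0.492). Markers of intestinal cells were low and moved with VIL1. The 22 genes of that list summed to 57.6 and 22 FPKM in BT-20 and 146 and 35.9 FPKM in MDA-MB-468, 17 of the 22 were lower with QPRT shRNA in both lines, and GUCA2B was at 0 in every library. A list of 8 leukocyte markers summed to 36.1 and 20.2 FPKM in BT-20 and to 80.1 and 17.3 FPKM in MDA-MB-468, most of it from IGHA1 and JCHAIN. Of the 8, 5 were lower with QPRT shRNA in each line and 3 were lower in both. The part of such RNA in the VIL1 values was not tested.

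The Arp2/3 complex has 7 subunits, which 9 of the members encode: the actin-related proteins ACTR2 and ACTR3, and ARPC1 to ARPC5, with ARPC1 and ARPC5 in alternative forms. ARPC2, part of the core of the complex, was the highest of the 9 in every library, at 331 and 308 FPKM in BT-20 and 297 and 247 FPKM in MDA-MB-468. ARPC3 (chr12:110434825-110450422), a small peripheral subunit, stood at 184 and 272 FPKM in BT-20 and 120 and 180 FPKM in MDA-MB-468. Both QPRT shRNA libraries were above the control library of their line, by 1.48-fold and 1.5-fold. The mean log2 effect was 0.57 (SE 0.193, limma adjusted p = 0.262), the lowest p of the 41 members and rank 166 of 14321.

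No other subunit gene was higher with QPRT shRNA in both lines. Its FPKM was 1.42 and 1.99 times the median of the other 8 in BT-20 and 0.920 and 1.68 times in MDA-MB-468. The ratio of ARPC3 to ARPC2 was 0.557 and 0.885 in BT-20 and 0.403 and 0.730 in the MDA-MB-468 libraries, a log2 change of 0.67 (95% counting interval 0.54 to 0.80) and 0.86 (0.70 to 1.01). That pair was chosen after the values were seen, and ARPC2 was itself lower with QPRT shRNA, by log2 -0.10 and -0.27. ARPC3 has a GC content of 40.4%, and with the GC and length trend removed its log2 differences were 0.50 and 0.66. In GENCODE 29 it overlaps AC144548.1 on the same strand, and its 3 named pseudogenes held at most 0.0959% of its FPKM.

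Of the other 8 subunit genes, ACTR2, ACTR3, ARPC1A, ARPC4 and ARPC5 had opposite signs in the lines (ACTR3 and ARPC5 not once the GC trend was removed), and ARPC1B, ARPC2 and ARPC5L were lower with QPRT shRNA in both. ACTR2 stood at 164 and 226 FPKM in BT-20 and 179 and 152 FPKM in MDA-MB-468, 1.38-fold higher with QPRT shRNA in the first and 1.18-fold lower in the second. ACTR3 stood at 122 and 137 FPKM in BT-20 and 113 and 88.7 FPKM in MDA-MB-468. Both actin-related proteins were thus higher in BT-20 and lower in MDA-MB-468, although for ACTR3 the BT-20 difference of 0.17 on the log2 scale became -0.10 with the GC trend removed. ARPC5L, the second form of ARPC5, stood at 92.5 and 67.1 FPKM in BT-20 and 45.5 and 42.4 FPKM in MDA-MB-468, and was 1.38-fold lower with QPRT shRNA in BT-20. The ratio of ARPC5 to ARPC5L was 0.982 and 1.36 in BT-20 and 2.09 and 1.90 in the MDA-MB-468 libraries. Between lines, ARPC3, ARPC4 and ARPC5L were higher in BT-20, by 0.61 (limma adjusted p = 0.00422), 0.94 (1.38e-05) and 0.83 (0.000203) on the log2 scale, and the other 6 subunit genes were not called. The ARPC3 call was lost without the shRNA block and when any 1 library was left out. Its difference, MDA-MB-468 minus BT-20, then lay between -0.90 and -0.31 on the log2 scale. ARPC4 overlaps the readthrough gene ARPC4-TTLL3 on the same strand.

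The 4 genes that activate Arp2/3 or hold its branches, WASL, WASF1, WASF2 and CTTN, passed neither test. CTTN, cortactin, was the most abundant at 279 and 322 FPKM in BT-20 and 385 and 347 FPKM in MDA-MB-468. WASF1 and WASL stayed between 14.5 and 21.8 FPKM, and WASF2 between 29.6 and 37.6 FPKM. All 4 were higher with QPRT shRNA in BT-20, by 0.02 to 0.21 on the log2 scale, and all but WASF1 were lower in MDA-MB-468. The BT-20 sign of WASL, WASF1 and WASF2 turned with the GC trend removed, while that of CTTN did not, and the MDA-MB-468 sign of WASL turned as well, from -0.13 to 0.01.

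Cofilin-1 (CFL1), cofilin-2 (CFL2) and destrin (DSTN) bind and cut ageing filaments, and the LIM kinases switch them off by phosphorylation. CFL1 stood at 554 and 439 FPKM in BT-20 and 702 and 783 FPKM in MDA-MB-468. It was 1.26-fold lower with QPRT shRNA in BT-20 and 1.12-fold higher in MDA-MB-468. DSTN stood at 190 and 177 FPKM in BT-20 and 260 and 235 FPKM in MDA-MB-468. CFL2, the form typical of muscle, stood at 10.5 and 11.1 FPKM in BT-20 and 4.33 and 3.79 FPKM in MDA-MB-468. Between lines, CFL1 was higher in MDA-MB-468 by 0.59 (limma adjusted p = 0.00404) and DSTN by 0.43 (0.0464), and CFL2 was higher in BT-20 by 1.22 (1.58e-05) on the log2 scale. The call of DSTN was lost with upper quartile scaling (0.39), with the GC and length trend removed (0.26), without the variance trend (0.43) and when any 1 library was left out. Named pseudogenes of DSTN held 9.30% and 8.24% of its FPKM in BT-20 and 1.22% and 1.22% in the MDA-MB-468 libraries, so part of its reads may be divided among near-identical copies.

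The LIM kinase genes differed in how far the lines were apart. LIMK1 (chr7:74082933-74122525) stood at 81.3 and 85.5 FPKM in BT-20 and 19.6 and 23.7 FPKM in MDA-MB-468. LIMK2 stood at 56.9 and 65.9 FPKM in BT-20 and 67.7 and 85.8 FPKM in MDA-MB-468. LIMK2 over LIMK1 was therefore 0.70 and 0.77 in BT-20 and 3.45 and 3.62 in the MDA-MB-468 libraries. LIMK1 was higher in BT-20 by 1.90 on the log2 scale (SE 0.214, limma adjusted p = 9.1e-18), and LIMK2 was not called. Both kinases were higher with QPRT shRNA in both lines, LIMK1 by 1.05-fold and 1.21-fold and LIMK2 by 1.16-fold and 1.27-fold, with no call for either (limma adjusted p = 1 for each).

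Profilins bring actin subunits to formins and Ena/VASP proteins. PFN1 stood at 805 and 607 FPKM in BT-20 and 459 and 485 FPKM in MDA-MB-468, 1.33-fold lower with QPRT shRNA in the first line and 1.06-fold higher in the second. Without the GC trend the MDA-MB-468 difference of 0.08 on the log2 scale became -0.04. PFN2 stood at 37.2 and 35.5 FPKM in BT-20 and 33.4 and 52.4 FPKM in MDA-MB-468. The library of MDA-MB-468 with QPRT shRNA was the highest of the 4 and the other 3 were close together. The ratio of PFN1 to PFN2 was lower with QPRT shRNA in both lines, 21.7 and 17.1 in BT-20 (log2 change -0.34, 95% counting interval -0.55 to -0.13) and 13.7 and 9.26 in the MDA-MB-468 libraries (-0.57, -0.77 to -0.37). GC content is 58.2% in PFN1 and 45.4% in PFN2. PFN1 was higher in BT-20 by 0.57 on the log2 scale (limma adjusted p = 0.00573).

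VASP and ENAH hold barbed ends open to growth in filopodia and at the leading edge. VASP stood at 354 and 336 FPKM in BT-20 and 184 and 184 FPKM in MDA-MB-468, higher in BT-20 by 0.90 on the log2 scale (limma adjusted p = 9.57e-06). ENAH stood at 93.1 and 90.7 FPKM in BT-20 and 104 and 70.1 FPKM in MDA-MB-468. The shRNAs thus differed 1.49-fold in MDA-MB-468 and 1.03-fold in BT-20, where the sign turned under TPM scaling.

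The cross-linkers bind filaments to each other. ACTN4 and ACTN1, the non-muscle alpha-actinins, were lower with QPRT shRNA in both lines. ACTN4 stood at 854 and 756 FPKM in BT-20 and 548 and 432 FPKM in MDA-MB-468. ACTN1, whose promoter carries a CArG box, stood at 266 and 222 FPKM in BT-20 and 217 and 189 FPKM in MDA-MB-468. The mean log2 effect was -0.26 for ACTN4 (SE 0.187) and -0.23 for ACTN1 (SE 0.192), with limma adjusted p = 1 for both. Between lines ACTN4 was higher in BT-20 by 0.72 on the log2 scale (limma adjusted p = 0.00034), and ACTN1 was not called. FLNA, filamin A, went the other way, at 266 and 302 FPKM in BT-20 and 558 and 479 FPKM in MDA-MB-468, higher in MDA-MB-468 by 0.87 (limma adjusted p = 1.75e-05). TAGLN2, transgelin-2, stood at 536 and 547 FPKM in BT-20 and 588 and 478 FPKM in MDA-MB-468. FSCN1, fascin, which bundles the filaments of filopodia, was low at 8.54 and 5.23 FPKM in BT-20 (124 and 78 fragments) and 5.35 and 7.30 FPKM in MDA-MB-468 (80 and 103 fragments). The shRNA ratio of FSCN1 was 1.63-fold lower in BT-20 and 1.37-fold higher in MDA-MB-468, with log2 counting intervals of -1.14 to -0.29 and 0.01 to 0.89.

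Tropomyosins are coiled-coil proteins that lie along the filament and decide which other proteins reach it. All 4 tropomyosin genes were called higher in MDA-MB-468, TPM3 less firmly than the others, and the line difference was the largest of any member for TPM2. TPM1 (chr15:63042632-63071915) stood at 86.4 and 69.4 FPKM in BT-20 and 369 and 350.2 FPKM in MDA-MB-468, a difference of 2.20 on the log2 scale (SE 0.194, limma adjusted p = 3.29e-28). TPM4 stood at 290 and 276 FPKM in BT-20 and 703 and 563 FPKM in MDA-MB-468, a difference of 1.15 (6.4e-09). TPM3 stood at 248 and 297 FPKM in BT-20 and 453 and 342 FPKM in MDA-MB-468, a difference of 0.53 (0.0104). The TPM3 call was lost with the GC and length trend removed, where the difference was 0.38, without the variance trend and when any 1 library was left out. TPM1 thus took a larger share of tropomyosin FPKM in MDA-MB-468, 23.4% and 26.5% against 13.8% and 10.8% in BT-20. TPM3 took a smaller one, 28.8% and 25.9% against 39.8% and 46.2%, and TPM4 between 42.6% and 46.4% in all libraries. Since the coding parts of these genes are alternatively spliced, the values sum isoforms that differ in function.

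TPM2 (chr9:35681992-35690121) was near absent in BT-20, at 0.0812 FPKM (about 1 fragment) with control shRNA and 0.474 FPKM (about 6 fragments) with QPRT shRNA, and stood at 48.9 and 66.7 FPKM in MDA-MB-468. The ratio between lines was 603-fold with control shRNA (95% counting interval 99.4 to 22000) and 141-fold with QPRT shRNA (59.4 to 355), and the limma difference was 5.53 on the log2 scale (SE 0.261, adjusted p = 1.66e-95). In MDA-MB-468 it was 1.36-fold higher with QPRT shRNA. In BT-20 the ratio of the shRNAs was 5.84 with a counting interval of 0.709 to 269. The BT-20 library with QPRT shRNA held TPM2 at 0.820% of its MDA-MB-468 mean, and the control library at 0.140%. A set of 15 other genes had at least 50 FPKM in MDA-MB-468 and at most 0.2 FPKM in BT-20 with control shRNA. Their median was 0.612% in BT-20 with QPRT shRNA (quartiles 0.415% and 0.783%), and CDKN2A, which is among the 15, stood at 0.432%. TPM2 was thus above the upper quartile of the set. Since those genes were chosen, after their values were seen, for a low level in the control library, their share there is not given. The part of RNA of the other line in the BT-20 library with QPRT shRNA was not tested. The 12 smooth muscle and stromal markers summed to 40.6 and 29.3 FPKM in BT-20 and 24.7 and 19.2 FPKM in MDA-MB-468. COL1A1 alone made up most of that sum, at 32.0, 21.1, 17.5 and 14.7 FPKM in the same order, while 7 of the 12 genes were higher in MDA-MB-468 than in BT-20 under control shRNA. The part of such RNA in the tropomyosin values was not tested.

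Ezrin (EZR) and moesin (MSN) tie filaments to the plasma membrane. EZR stood at 115 and 128 FPKM in BT-20 and 129 and 137 FPKM in MDA-MB-468. MSN stood at 130.0 and 108 FPKM in BT-20 and 171 and 163 FPKM in MDA-MB-468, higher in MDA-MB-468 by 0.49 on the log2 scale (limma adjusted p = 0.0234). The MSN call was lost with the GC and length trend removed (0.35) and without the variance trend. It was also lost when 1 library other than BT-20 with control shRNA was left out. The ratio of EZR to MSN was higher with QPRT shRNA in both lines, 0.881 and 1.18 in BT-20 (log2 change 0.42, 95% counting interval 0.30 to 0.54) and 0.753 and 0.838 in the MDA-MB-468 libraries (0.15, 0.05 to 0.26). Other ratios changed in opposite directions in the lines, with counting intervals clear of 0. In BT-20 and MDA-MB-468, CFL1 to DSTN changed by log2 -0.23 and 0.31, and TPM4 to TPM1 by 0.25 and -0.24. ACTN4 to ACTN1 changed by 0.08 and -0.15, and TPM3 to TPM4 by 0.33 and -0.09. ACTR2 to ACTR3 was higher in both, by 0.29 and 0.11.

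**Figure D3:**
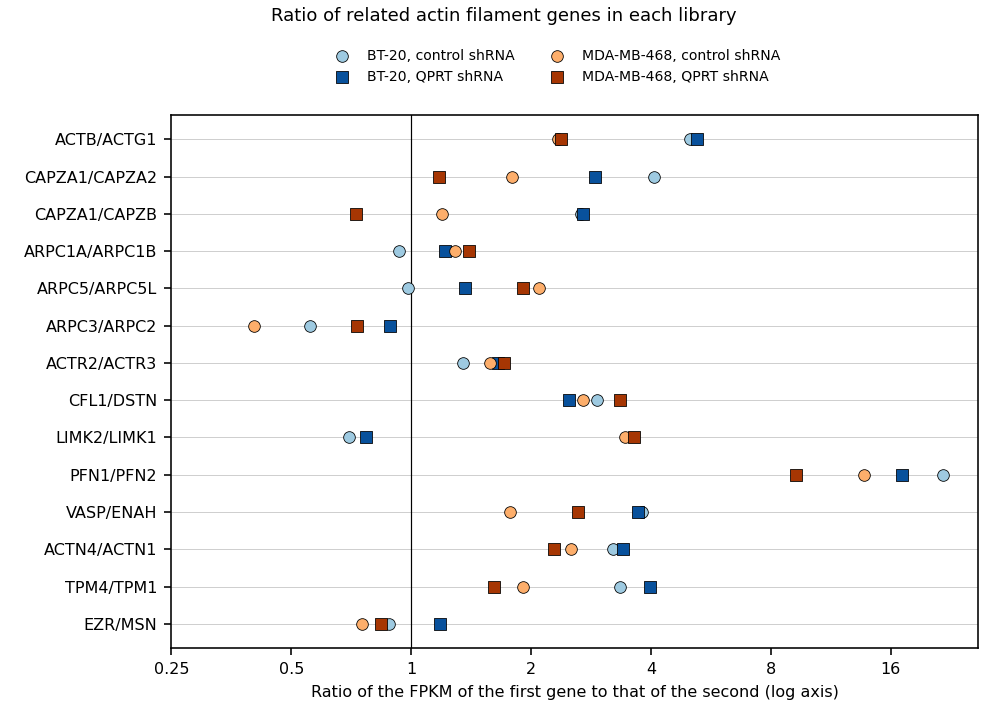
Ratio of the FPKM of related genes (log axis) in the 4 libraries, 1 point per library. LIMK2/LIMK1 and ACTB/ACTG1 separate the lines, while CAPZA1/CAPZA2 is lower and ARPC3/ARPC2 higher with QPRT shRNA than with control shRNA in each line.

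The second comparison asked how the 2 lines differed in these genes. Over both shRNAs, limma called 21 of the 41 members at an adjusted p under 0.05, 51.2%, against 55.1% of all genes tested, so the share of members was near that of any gene. The 10 members higher in MDA-MB-468 (30.7% of all genes) were ACTG1, CAPG, CFL1, DSTN, FLNA, MSN and the 4 tropomyosins. The 11 higher in BT-20 (24.4% of all genes) were CAPZA1, CAPZA2, CAPZB, ARPC3, ARPC4, ARPC5L, CFL2, LIMK1, PFN1, VASP and ACTN4. At 2-fold or more under both shRNAs there were 8, against 23.3% of all genes: ACTG1, CAPG, TPM1, TPM2 and TPM4 higher in MDA-MB-468, and CAPZA1, CFL2 and LIMK1 higher in BT-20. The median difference of the members, MDA-MB-468 minus BT-20, on the log2 scale was 0.08 under control shRNA and -0.11 under QPRT shRNA, and that of all genes was 0.12 and 0.07. Of the 4 members with a CArG box in the window, ACTG1, FLNA and TPM4 were among the 10 and ACTN1 was called in neither direction. Leaving out any 1 library and fitting without the shRNA block leaves 1 sample in a line. Fewer members were then called, as were fewer of all genes. Without any filter on low values 0 members were called, as were 0 of all 50626 genes, with 17 members at an unadjusted p under 0.05.

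**Figure D4:**
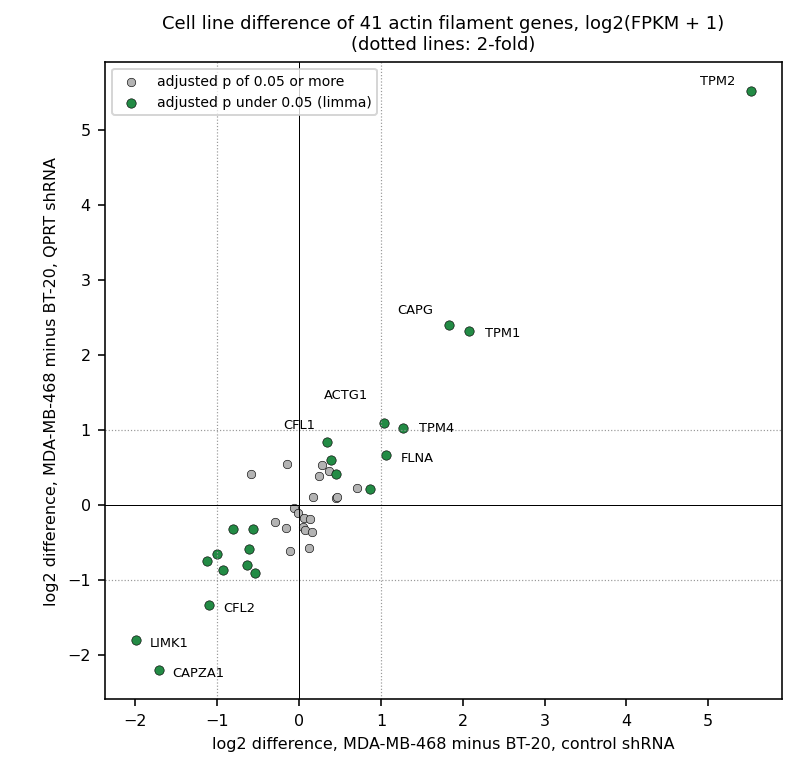
Log2(FPKM + 1) difference between MDA-MB-468 and BT-20 for the 41 genes, with control shRNA (horizontal) and QPRT shRNA (vertical), coloured by the limma call. The 8 genes beyond 2-fold under both shRNAs lie in the outer corners, with TPM2 at 5.53 and 5.52.

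For comparison, 74 tested genes of a wider actin list (formins, coronins, spectrins, calponins, thymosins, plastins and others) were read the same way. None was called for the shRNA effect by limma, with 1 at an unadjusted p under 0.05, and none differed 2-fold or more within a line. With QPRT shRNA 30 of the 74 were lower in BT-20 (40.5%, against 43% of all genes). In the MDA-MB-468 libraries 44 were lower (59.5%, against 47.6%). The medians were 0.07 and -0.07 on the log2 scale. In both lines 16 were lower (21.6%), against 16 of the 41 members (39.0%) and 17.7% of all genes. Between lines 48 of the 74 were called (64.9%, against 55.1% of all genes). Of these, 20 were higher in MDA-MB-468 (27.0%, against 30.7%) and 28 higher in BT-20 (37.8%, against 24.4%). At 2-fold or more under both shRNAs 26 of the 74 differed (35.1%, against 23.3%).

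The shRNA difference was weakly related to the GC content of the transcripts, and in opposite ways in the 2 lines. Across the 14232 genes with GC content and length, Spearman's rho of the log2 difference with GC content was -0.28 in BT-20 and 0.29 in the MDA-MB-468 libraries, and across the 41 members it was -0.35 and 0.32, as a description over genes that share libraries. Of the 10 members with a GC content under 45%, 7 were higher with QPRT shRNA in BT-20 (median 0.12 on the log2 scale, all genes of that GC content 0.16) and 9 were lower in MDA-MB-468 (median -0.20, all genes -0.09). Of the 15 members from 45% to 55%, 9 were lower in BT-20 (median -0.07, all genes 0.04) and 10 were lower in MDA-MB-468 (median -0.10, all genes 0.02). Of the 16 members at 55% or more, 11 were lower in BT-20 (median -0.13, all genes -0.06), and 9 were lower in MDA-MB-468 as well (median -0.03), where all genes of that GC content had a median of 0.12. Under 45%, the exceptions were ARPC3, higher in both lines, and CAPZA1, DSTN and ENAH, lower in both.

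**Figure D5:**
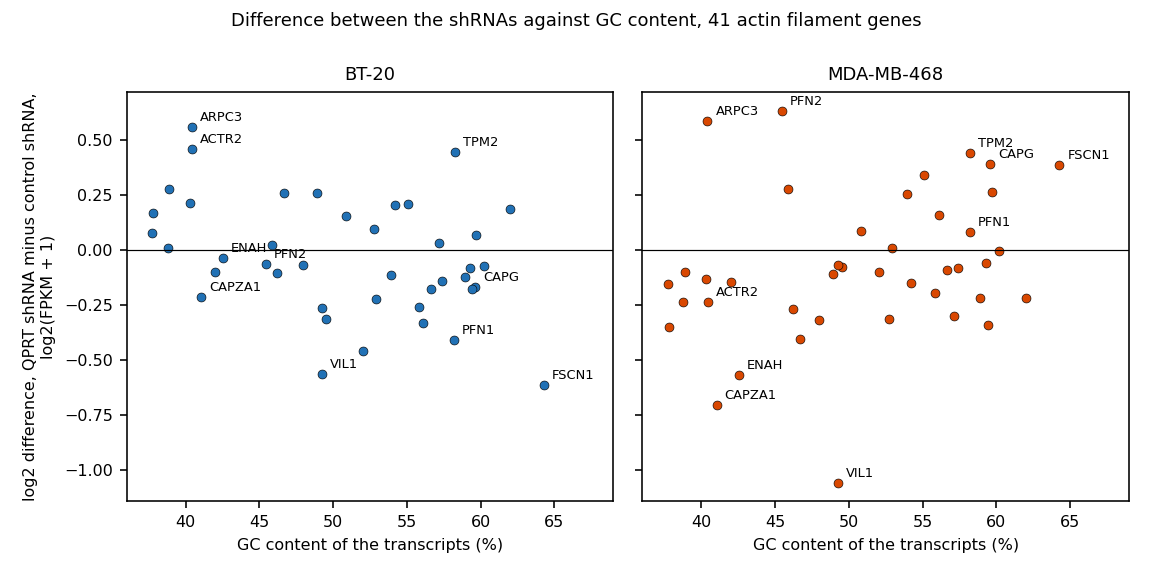
Log2(FPKM + 1) difference between QPRT shRNA and control shRNA against the GC content of the transcripts (%) of the 41 genes, in BT-20 (left) and MDA-MB-468 (right). The points slope down in BT-20 and up in MDA-MB-468, and ARPC3 (GC content 40.4%) lies above 0 in both panels.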

How the data were processed

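The data comprised 4 RNA-seq libraries, 1 per cell line and shRNA, grouped by their labels. According to the methods of the study, RNA of stably transduced cells was sequenced on a NovaSeq system and trimmed, and the authors used DESeq2 for differential expression. The submitters' processing notes name FastQC, MultiQC, CASAVA, TopHat2 2.0.12 and HTSeq 0.6.1. The genome build, annotation and strand setting are not given in the sources used here. The authors deposited FPKM values for 50653 genes, not counts. Symbols came from the reference gene names, lengths and positions from GENCODE 29 (GRCh38). Where a symbol repeated (27 rows), the row of highest mean stayed.

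FPKM times the mean transcript length, over the worth of 1 fragment, gave whole numbers within 0.02 for 97.6% to 97.8% of the values above 0 of single-transcript genes and 87.3% to 87.6% of all. The totals so recovered were 10621657 and 10909859 fragments for BT-20 and 10945947 and 10321995 for MDA-MB-468 (control, then QPRT shRNA), the largest 1.06 times the smallest. Intervals of ratios are exact Clopper-Pearson intervals (95%), and those of changes in a ratio of 2 genes are log odds intervals; both cover counting error only. Fragments of 12 members, ACTB, ACTG1 and TPM2 among them, were not whole in every library and are approximate.

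Differences were taken on log2(FPKM + 1) for 14321 genes with a mean of at least 1, which understates those of low genes. limma 3.58.1 (R 4.3.3) was fitted with cell line and shRNA as terms and a trended eBayes, on 1 residual degree of freedom, with Benjamini-Hochberg adjustment, and was tested on simulated data. The prior degrees of freedom were infinite, so genes of one level share one spread, and an interaction of shRNA and cell line could not be tested. limma-voom was run on the recovered fragments as an alternative, and the count test of the study was not run. Lowess (fraction 0.3) removed the trend on GC content and length in an alternative. Other alternatives were a pseudocount of 0.1, upper quartile and TPM scaling, no filter, a mean of at least 5, summed rows, 1.5-fold, no trend, no block and leaving out each library. Of the members, 14 have pseudogenes of their name (72 in all), 8 overlap a gene on the same strand and 22 on the opposite strand, where reads may be shared.

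The members, lists, tests and naming rule were chosen with earlier results of these data known. Named with all values were the actins, CAPZA1, paralog pairs, the 3 largest rises and falls per line among members of at least 20 fragments in either library, and the 10 largest line differences; other members are given more briefly, and the ratios of EZR to MSN, LIMK2 to LIMK1 and ARPC3 to ARPC2 were chosen after the values were seen. Tools were matplotlib 3.10.9, statsmodels 0.14.6, scipy 1.17.1, pandas 2.3.3 and numpy 2.4.6 under Python 3.11.15.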

Additional observations from a re-analysis of the deposited data

Results flagged for a closer look

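For 9 members the shRNA difference had opposite signs in the 2 lines and the counting interval excluded 0 in each. With 1 library per line and shRNA the difference between lines was not tested. The values below are the log2 difference between QPRT and control shRNA in MDA-MB-468 minus that in BT-20, on the log2(FPKM + 1) scale.

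Of the Arp2/3 genes, ACTR2 differed by -0.70 (BT-20 0.46, MDA-MB-468 -0.24), ACTR3 by -0.52 (0.17 and -0.35) and ARPC1A by -0.37 (0.26 and -0.11). CTTN, which holds Arp2/3 branches, differed by -0.36 (0.21 and -0.15). Among the genes of the filament itself, FLNA differed by -0.40 (0.19 and -0.22) and TPM3 by -0.66 (0.26 and -0.40). The opposite order was seen for CFL1, which differed by 0.49 (-0.33 and 0.16), PFN1 by 0.49 (-0.41 and 0.08) and FSCN1 by 1.00 (-0.61 and 0.39).

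With the trend on GC content and length removed, ACTR3 was at -0.10 and -0.21 and PFN1 at -0.28 and -0.04, so neither kept opposite signs, while the other 7 kept them. Of these 9, ACTR3 has the lowest GC content, 37.8%, and FSCN1 the highest, 64.3%. The share of opposite signs was 19 of 41 members, against 54.6% of all genes tested.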

How the results depend on the processing

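The count of members called for the shRNA effect was 0 under every alternative run, although the number of all genes called ranged from 0 to 105 (90 as reported, and 1 with the GC and length trend removed). No paired analysis was possible because the labels give each group a single library and no replicate numbers; the cell line is the block, and without it 0 members were called. For the line difference, 21 calls as reported became 0 with no filter on low values, where 17 members had an unadjusted p under 0.05, and between 11 and 13 when a library was left out without the shRNA block, where the lone sample of an arm is assumed to vary like the others; 13 remained without either BT-20 library, 12 without the control and 11 without the QPRT library of MDA-MB-468. The other alternatives gave 17 to 22 calls, where between 53.3% and 56.7% of all genes were called. DSTN was lost with upper quartile scaling, ARPC3 without the shRNA block, and CAPZB, DSTN, MSN and TPM3 without the variance trend. Without the GC and length trend DSTN, MSN and TPM3 were lost and ACTR2, ACTR3, ARPC2 and GSN gained. CAPZA1, ACTG1, CAPG, CFL2, LIMK1, TPM1, TPM2, TPM4, ARPC4 and VASP were called in every fit but the unfiltered one.

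At least 2-fold differences in BT-20 numbered 0 as reported, 2 with a pseudocount of 0.1 (VIL1 and TPM2) and 1 at 1.5-fold. In MDA-MB-468 they numbered 1, 0 at a mean of at least 5, where VIL1 is filtered out, and 4 at 1.5-fold. Differences between lines under both shRNAs numbered 8 at 2-fold, against 23.3% of all genes. They numbered 14 at 1.5-fold, where the share of all genes is not given here. The median line difference with control shRNA was 0.08 and became -0.085 with the GC and length trend removed; the trend removal itself centres all genes, whose median moved from 0.12 to -0.004. The other medians moved by less than 0.09, the median counting half-width of a member. Leaving out a library without the line block compares different lines: ACTG1 then gave shRNA effects of 0.43 and 0.40 without BT-20 with QPRT shRNA and without MDA-MB-468 with control shRNA, and CAPZA1 gave 0.40 without BT-20 with control shRNA and 0.65 without MDA-MB-468 with QPRT shRNA, none called.

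With 1 library per line and shRNA, the spread between cultures of a line was not measured, and VIL1, FSCN1 and TPM2 in BT-20 rest on few fragments.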
